A study of Mus musculus with 8 samples.

Results

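The eotaxins and eosinophil genes followed here are 7 genes. They are the eotaxin genes Ccl24 and Ccl11, the gene of their receptor Ccr3, the ribonuclease gene Rnase2a, the granule protein genes Epx and Prg2, and the interleukin-5 receptor gene Il5ra. They were chosen by symbol, as every probe set whose platform annotation gives exactly 1 of these names. That found 7 probe sets, 1 per gene, among 45101 on the array and 18193 genes with a probe set of 1 symbol. The list was built around the high values of Ccl24 and Rnase2a in protected islets, so the contrast between the arms is a description for those genes, with no test. The question was whether these high values come with other eosinophil transcripts.

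Eotaxins are chemokines that draw eosinophils into tissue through CCR3, a receptor those cells carry in abundance. Interleukin-5, acting through its receptor alpha chain and a beta chain shared with other cytokine receptors, drives eosinophils to form and survive. Their granules hold major basic protein, eosinophil peroxidase and ribonucleases. Eotaxins are made not by eosinophils alone but also by fibroblasts, epithelium and macrophages, and interleukin-4 and interleukin-13 raise them through the transcription factor STAT6.

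The series holds 8 Affymetrix arrays, and islet RNA pooled from 5 NOD.Scid mice went onto each. NOD.Scid mice lack mature lymphocytes of their own but keep myeloid cells. The untreated mice (1 array, day 0) received nothing. The diabetogenic arm (days 3, 4 and 8, 1 array each) received CD4+ BDC2.5 T cells, whose transgenic receptor recognises a beta cell antigen. The protected arm (days 3, 4, 5 and 8, 1 array each) received the same cells and was also given a monoclonal antibody to interferon-γ (IFN-γ) on days -1 and 2. The diabetogenic arm has no day 5 array because its islets were then too swollen to cut out. Per the submitters' design text the antibody kept these mice from diabetes. The labels name no control antibody for the diabetogenic arm, so neutralisation and the injections themselves cannot be told apart.

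Islets were cut by laser capture. Of the 6 beta cell genes measured, the insulin gene Ins2 (3409 to 6359) and the amylin gene Iapp (99.7 to 1143) were bright on every array. G6pc2, Slc30a8 and Pdx1 stood between 42.9 and 166 on the untreated and day 3 arrays but between 1.16 and 18.4 on the later ones, and Nkx6-1 between 1.58 and 5.91 on all. The table gives probe set intensities with no detection calls, and array medians lay between 3.14 and 3.96, so a value of that size is in the middle of all probe sets and cannot be called present or absent. Probe sets at 8 or more times the median made up 0.85% of the diabetogenic array of day 4 and between 2% and 5.34% of the other arrays. Spiked hybridisation controls, RNAs added at that step, were dim on the untreated and day 3 arrays (medians of 1.48 to 2.29) and bright on the 5 others (551 to 1712). The arms of each matched day lie on the same side of that split. Changes from day 3 to later days cross it, as do differences of later arrays from untreated islets. In those the day and the split cannot be told apart. The 3'/5' ratio of the actin probe sets, a sign of RNA length, was 5.54, 2.25 and 13.8 in diabetogenic islets of days 3, 4 and 8, against 5.01, 9.24 and 10.5 in protected islets of those days. It was 24.2 on the protected array of day 5. The same ratio for Gapdh ordered the arrays otherwise. It was 9.11, 2.78 and 19.0 in diabetogenic islets of days 3, 4 and 8. In protected islets of days 3, 4, 5 and 8 it was 8.49, 10.5, 6.40 and 10.8. The part of RNA length in the values was not tested. Since each array is a bulk sample, more cells of a type and more RNA per cell cannot be told apart, and each day of an arm is 1 pool of mice.

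Of the eotaxin genes, Ccl24, which encodes eotaxin-2, showed the wider span. It had intensities of 118, 476, 659 and 56.0 in protected islets of days 3, 4, 5 and 8, and 4.20, 10.8 and 1.26 in diabetogenic islets of days 3, 4 and 8, against 1.12 in untreated islets. The arms did not overlap. On the protected arrays Ccl24 was brighter than 99.3%, 99.8%, 99.9% and 98.4% of all probe sets, in the same order of days.

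On the diabetogenic arrays Ccl24 was brighter than 60.9%, 93.3% and 7.1% of probe sets on days 3, 4 and 8, and in untreated islets brighter than 4.06%. On the diabetogenic array of day 4 Ccl24 stood at 3.11 times the median, and it was back at the bottom of the scale by day 8. The diabetogenic array of day 4 had the fewest bright probe sets (0.85%), so a modest intensity ranks high on it. No fold is given, since the diabetogenic values of days 3 and 8 lay near or below the array medians. On the scale log2(intensity + 2.155), used for all differences below, the mean was 7.76 ± 1.66 (SD, n = 4 days) in the protected arm and 2.71 ± 0.96 (SD, n = 3 days) in the diabetogenic arm. The spread there is between days, not between animals.

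In the protected arm Ccl24 was highest on day 5, at 5.58 times its day 3 intensity, a ratio across the split in hybridisation controls. Its day 5 value was 11.8 times that of day 8. The genes were chosen on the rise of Ccl24 and Rnase2a in protected islets. The diabetogenic values entered that choice through the contrast between the arms, and the untreated array may have entered it too. The comparison of the diabetogenic arm with untreated islets is therefore not independent of that choice. In that comparison Ccl24 was 0.998 ± 1.35 (SE) higher on the log2 scale (limma over all 8 arrays), given as a description. Leaving out any 1 day pair left the matched-day difference between 4.17 and 4.73. The 95% interval against untreated islets ran from -1.86 to 3.86, so with 1 untreated array a large change in either direction was not detectable.

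**Figure D1:**
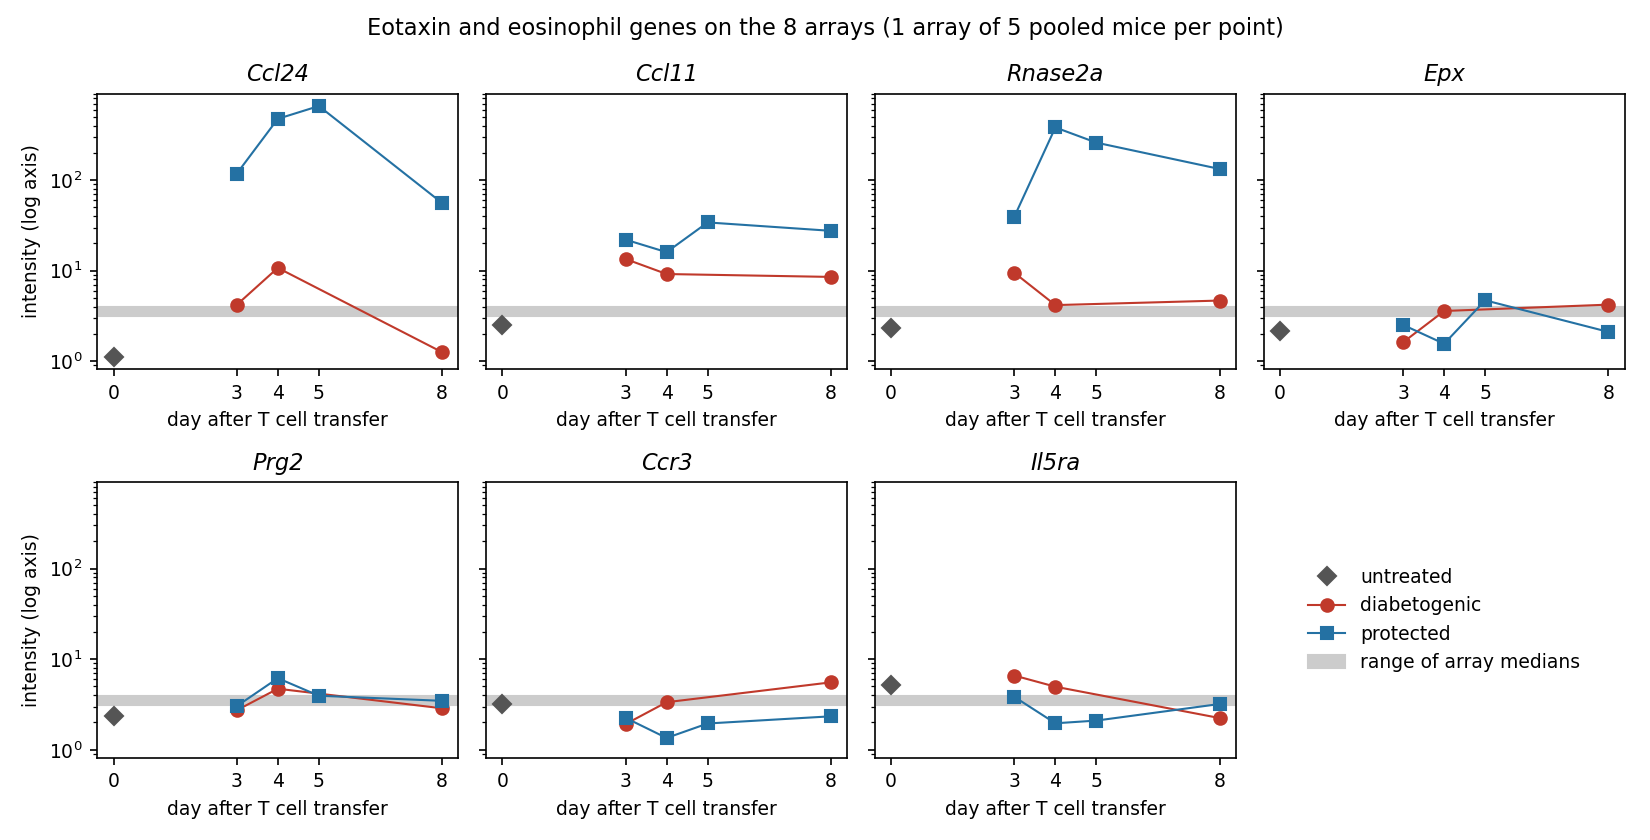
Intensity (log axis) of the 7 genes by day after T cell transfer, 1 point per array of 5 pooled mice, in untreated (diamond), diabetogenic (circles) and protected (squares) islets; the grey band is the range of array medians, 3.14 to 3.96. Ccl24, Ccl11 and Rnase2a lie higher on every protected array than on any diabetogenic one, while Epx, Prg2, Ccr3 and Il5ra stay near the band, between 1.35 and 6.60, on all 8 arrays.

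Ccl11, which encodes eotaxin-1, moved far less. It stood at 22.0, 16.02, 34.1 and 27.6 in protected islets of days 3, 4, 5 and 8, at 13.5, 9.19 and 8.54 in diabetogenic islets of days 3, 4 and 8, and at 2.49 in untreated islets. The arms did not overlap here either, and each of the 7 injected arrays lay above the untreated one. Over all 16396 genes tested, 2.34% had every protected array above every diabetogenic one.

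The matched-day fit, which compares the arms over days 3, 4 and 8 with day as a block, gave a Ccl11 difference of 0.93 ± 0.41 (SE, 3 day pairs) in favour of the protected arm. Its 95% interval was 0.09 to 1.77. The call did not pass across all genes (limma, adjusted p = 0.511; unadjusted p = 0.0310, where 8.97% of all genes had one under 0.05). By day the difference was 0.63, 0.68 and 1.48, so day 8 set much of its size, and without the day 8 pair it was 0.66. Ccl11 was 1.41 ± 0.82 higher in diabetogenic and 2.50 ± 0.80 higher in protected than in untreated islets, and neither passed (limma, adjusted p = 0.894 and 0.9998).

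Fibroblasts are a known source of Ccl11. The 7 listed fibroblast genes summed to 49.0, 61.3 and 326 in diabetogenic islets of days 3, 4 and 8, to 58.1, 68.7, 257 and 623 in protected islets of days 3, 4, 5 and 8, and to 56.0 in untreated islets. Most of the late sums was collagen, Col1a2 alone standing at 223 and 428 in diabetogenic and protected islets of day 8. In the matched-day fit 0 of the 7 passed, 4 were positive and 3 negative, with a median of 0.0061. Lum, a matrix proteoglycan gene, was lower on every protected array than on any diabetogenic one (1.81% of all genes), at 1.67 to 2 against 2.07 to 7.25. Dcn, also a matrix proteoglycan gene, went the other way by 0.83 ± 0.37 and did not pass (limma, adjusted p = 0.524). It stood at 7.29 to 12.6 on the protected and 1.91 to 9.38 on the diabetogenic arrays. The part of the fibroblast genes in the Ccl11 values was not tested.

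Both eotaxins signal through CCR3, and 3 other genes of ligands of that receptor were measured. Ccl5 stood at 50.5, 13.0 and 297 in diabetogenic islets of days 3, 4 and 8 and at 12.2, 11.2, 19.7 and 157 in protected islets of days 3, 4, 5 and 8. It was thus lower in protected islets on every matched day, opposite in sign to the eotaxins, though the difference of -0.99 ± 0.55 did not pass (limma, adjusted p = 0.607). Ccl7 (0.17 ± 0.33, adjusted p = 0.908) and Ccl28 (0.08 ± 0.34, adjusted p = 0.968) lay near 0 in the same limma fit.

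Rnase2a, also known as Ear11, encodes a ribonuclease of the eosinophil-associated family. It stood at 39.4, 382, 260 and 133 in protected islets of days 3, 4, 5 and 8, at 9.49, 4.17 and 4.68 in diabetogenic islets of days 3, 4 and 8, and at 2.35 in untreated islets. The arms did not overlap. The diabetogenic values of days 4 and 8 lay near the array medians, at the 59.8 and 57.8 percentile of probe sets, so again no fold is given.

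In the protected arm Rnase2a was highest on day 4, at 9.69 times its day 3 intensity, again across the split in hybridisation controls. Its day 4 value was 2.87 times that of day 8. The mean log2 value was 7.27 ± 1.41 (SD, n = 4 days) in the protected and 2.99 ± 0.48 (SD, n = 3 days) in the diabetogenic arm. The diabetogenic arm differed from untreated islets by 0.82 ± 1.23 (SE, limma), again only a description, since its values entered the choice of the gene. Leaving out the day 4 pair brought the matched-day difference from 4.02 to 3.07, and leaving out the day 3 pair raised it to 5.11.

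The eosinophil-associated ribonucleases are near copies of each other, and a probe set can read several, so a value is uncertain as to which of them it reports. Rnase2b stood between 1.51 and 7.37 over the 8 arrays and differed by 0.23 ± 0.32 (limma, adjusted p = 0.856). A probe set annotated to Ear3, picked out after its values were seen, stood at 17.2, 13.8, 30.2 and 16.2 in protected islets of days 3, 4, 5 and 8. In diabetogenic islets of days 3, 4 and 8 it stood at 9.41, 1 and 5.34, and in untreated islets at 2.31. Its arms did not overlap (protected above in 2.34% of all genes). Its difference of 1.46 ± 0.38 did not pass (limma, adjusted p = 0.217).

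Promoters are shown for Rnase2a, whose values parted between the arms, and for Epx, an eosinophil granule gene whose values did not. Sequences are those of RefSeq (build GRCm38.p6), 250 bases before to 50 bases after the gene's start, and 4 of the 7 members matched, the others of them being Ccr3 and Il5ra. Capitals mark matches, on either strand, to the motifs searched. These were the STAT6 motif (TTC and GAA with 4 bases between them), the GATA factor core GATAA, the C/EBP motif TTGCNNAA and the TATA box TATAAA. In the windows shown no match overlapped another.

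Rnase2a: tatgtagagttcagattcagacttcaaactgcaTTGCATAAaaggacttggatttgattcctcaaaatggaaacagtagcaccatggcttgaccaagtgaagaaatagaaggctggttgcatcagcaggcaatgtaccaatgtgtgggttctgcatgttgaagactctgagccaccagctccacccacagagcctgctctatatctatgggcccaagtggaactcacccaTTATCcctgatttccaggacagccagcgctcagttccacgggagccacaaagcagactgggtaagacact

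Epx: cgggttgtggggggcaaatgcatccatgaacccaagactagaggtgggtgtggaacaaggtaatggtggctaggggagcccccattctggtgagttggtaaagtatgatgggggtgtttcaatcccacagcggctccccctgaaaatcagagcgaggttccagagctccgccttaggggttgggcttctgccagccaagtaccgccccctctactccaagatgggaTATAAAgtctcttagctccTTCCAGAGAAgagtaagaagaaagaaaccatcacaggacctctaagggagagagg

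The first lies at chr14:51256063-51256362 and the second at chr11:87875487-87875786, both on the minus strand. The Rnase2a window held a C/EBP-type match starting 217 bases before the gene's start and a GATAA match on the other strand starting 20 bases before it, and 0 matches to the STAT6 motif. The Epx window held TATAAA 24 bases and a STAT6-type match 5 bases before the start. Among the 32851 windows of that length, 6.95% held the STAT6 motif, 25.4% GATAA, 10.8% the C/EBP motif and 13.6% TATAAA. Il5ra held a STAT6-type match after its start and GATAA before it, and Ccr3 held GATAA alone. Such a match is a run of letters in a window and not a measured site.

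The remaining members, genes of eosinophil granule proteins and receptors, did not show the separation of Ccl24 and Rnase2a, at values near the array medians. Epx encodes eosinophil peroxidase, a granule enzyme. It stood at 2.52, 1.56, 4.71 and 2.11 in protected islets of days 3, 4, 5 and 8, at 1.62, 3.59 and 4.22 in diabetogenic islets of days 3, 4 and 8, and at 2.18 in untreated islets. The arms overlapped, and on days 4 and 8 the protected array was the lower.

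Prg2 encodes major basic protein, the chief protein of the granule core. It stood at 3.03, 6.17, 3.95 and 3.47 in protected islets of days 3, 4, 5 and 8, at 2.73, 4.72 and 2.87 in diabetogenic islets of days 3, 4 and 8, and at 2.38 in untreated islets. The arms overlapped through the diabetogenic array of day 4. Without the day 4 arrays they did not, in a check added after seeing the data, as was so of 9.14% of all genes, and the range of Prg2 outside day 4 was only 2.38 to 3.95, close to the array medians.

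Ccr3, the eotaxin receptor gene, was as low. It stood at 2.25, 1.35, 1.95 and 2.34 in protected islets of days 3, 4, 5 and 8, at 1.92, 3.35 and 5.55 in diabetogenic islets of days 3, 4 and 8, and at 3.21 in untreated islets. Its highest value was on a diabetogenic array, that of day 8, where Ccl24 stood at 1.26. Ccr3 reached its array's median on 1 of the 8 arrays and so missed the filter of 2, the only member to do so.

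Il5ra encodes the alpha chain that binds interleukin-5. It stood at 3.84, 1.96, 2.10 and 3.20 in protected islets of days 3, 4, 5 and 8, at 6.60, 4.97 and 2.24 in diabetogenic islets of days 3, 4 and 8, and at 5.15 in untreated islets. Untreated and early diabetogenic islets thus held its higher values. Over these 4 genes and 8 arrays, 21 of 32 values lay below the median of their array, and the highest was 1.97 times it.

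**Figure D2:**
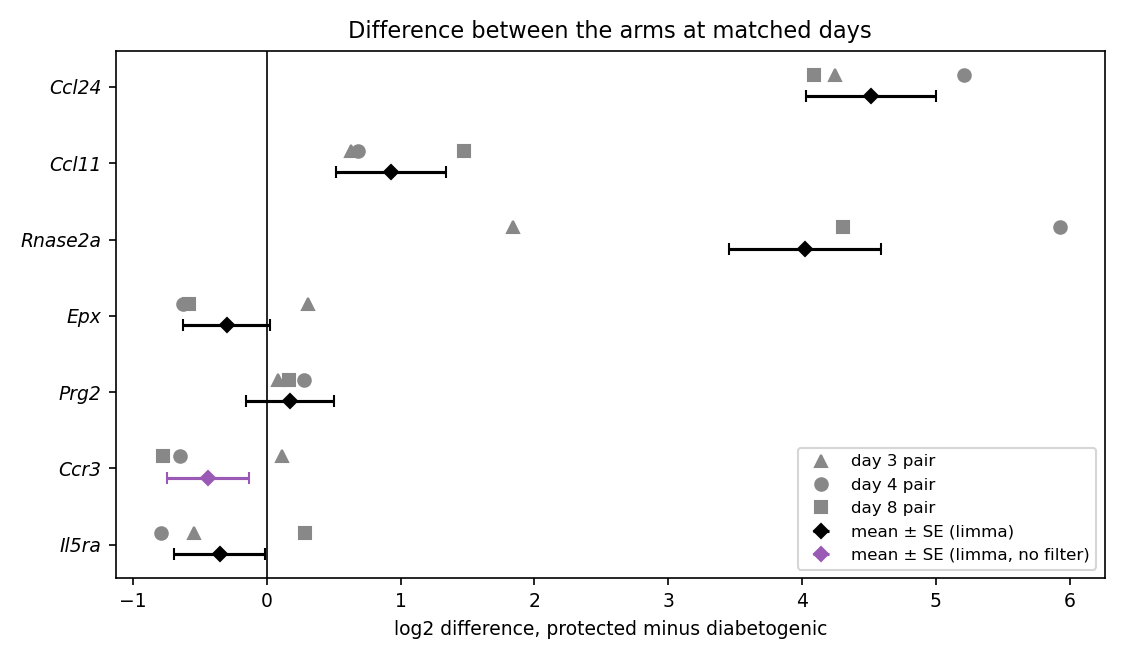
Log2 difference between protected and diabetogenic islets for each gene: grey symbols are the day 3, 4 and 8 pairs of arrays, black diamonds the limma mean ± SE over these 3 pairs, and the purple diamond that of Ccr3, from a fit without the filter on dim probe sets. Ccl24 and Rnase2a, whose values prompted the list, lie at 4.51 and 4.02 and Ccl11 at 0.93, while Epx, Prg2, Ccr3 and Il5ra lie between -0.44 and 0.17.

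In the matched-day fit the difference, protected minus diabetogenic, was -0.30 ± 0.32 (SE, 3 day pairs) for Epx, 0.17 ± 0.33 for Prg2 and -0.35 ± 0.34 for Il5ra, with adjusted p of 0.800, 0.902 and 0.772 (limma). Ccr3, from the fit of all 18193 genes without the filter, gave -0.44 ± 0.30 (limma, adjusted p = 0.692). Higher on all 3 matched days were 4 of the 6 members that passed the filter (Ccl24, Ccl11, Rnase2a and Prg2; 20.1% of all genes), and 0 had every protected array below every diabetogenic one (1.81% of genes). Every protected array lay above every diabetogenic one for 3 members (Ccl24, Ccl11 and Rnase2a), and also for 3 members after quantile normalization (2.64% of genes) and over days 4, 5 and 8 alone (18.3%). At least 2-fold higher were 2 members on day 3 (0.506% of genes), 2 on day 4 (14.1%) and 3 on day 8 (13.9%), Ccl24 and Rnase2a each time and Ccl11 on day 8. At least 2-fold lower were 0 members on day 3 (1.34% of genes), 0 on day 4 (5.78%) and 0 on day 8 (1475 of 16396 genes). Since 2 of these members were chosen on this contrast, the counts describe the list and support nothing. Of the 4 tested members that did not prompt the list (Ccl11, Epx, Prg2 and Il5ra), 0 passed, where 0.110% of all genes did, and 1, Ccl11, had an unadjusted p under 0.05. The upper ends of the 95% intervals of Epx, Prg2, Il5ra and Ccr3 were 0.36, 0.85, 0.34 and 0.19 on the log2(intensity + 2.155) scale. The intervals draw little on each gene's own spread, which has 2 degrees of freedom against 29.99 from the trend over all genes. At intensities this low the added 2.155 also shrinks a change, so these are not bounds on the fold of intensity.

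Against untreated islets Epx, Prg2 and Il5ra differed by 0.25 ± 0.49, 0.29 ± 0.50 and -0.17 ± 0.52 in the diabetogenic arm and by 0.13 ± 0.47, 0.45 ± 0.48 and -0.59 ± 0.51 in the protected arm. None of these passed (limma, smallest adjusted p = 0.939). No gene at all passed in those fits, in either arm, and the lone untreated array limits what they can show. Both arms share that array, so their differences from it are not independent.

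Of 16 further eosinophil genes listed, 10 had a probe set of 1 symbol and 9 were tested. In the matched-day fit 0 passed, 6 had a positive and 3 a negative difference, and their median of 0.21 compares with 0.07 over all genes. Siglecf, named for its role and not its size of change, a surface lectin that marks mouse eosinophils, stood between 1.43 and 4.79 over the 8 arrays, its highest value on the diabetogenic array of day 8 (difference 0.21 ± 0.34, adjusted p = 0.884). Prg3, a homologue of major basic protein, was brightest on the diabetogenic array of day 4, at 10.1, and at or below 4.02 on all others (-0.66 ± 0.34, adjusted p = 0.582). The lipoxygenase gene Alox15 differed by -0.64 ± 0.36 and did not pass (limma, adjusted p = 0.608).

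The brightest further eosinophil gene was Csf2rb, which encodes the beta chain of the interleukin-5 receptor and serves other myeloid cells too. It stood at 36.3, 92.6, 71.0 and 76.9 in protected islets of days 3, 4, 5 and 8, at 24.3, 26.5 and 46.3 in diabetogenic islets of days 3, 4 and 8, and at 4.16 in untreated islets. The arms overlapped, and the difference of 0.99 ± 0.56 did not pass (limma, adjusted p = 0.608). Hrh4, a histamine receptor gene, was the only one of these genes whose arms did not overlap (protected above in 2.34% of all genes). Its range was 5.78 to 13.0 on the protected and 1.21 to 5.48 on the diabetogenic arrays (0.87 ± 0.35, adjusted p = 0.487).

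Il5, named for its role as the eosinophil growth factor, stood at 2.20, 2.34, 4.77 and 1.09 in protected islets of days 3, 4, 5 and 8 and at 2.89, 5.98 and 1.04 in diabetogenic islets of days 3, 4 and 8. Il4 reached 9.59 and 7.04 in protected islets of days 4 and 5 and was at or below 2.98 on the other 6 arrays (0.71 ± 0.33, adjusted p = 0.534). Il13 was brightest, at 16.3, on the diabetogenic array of day 4 (-0.95 ± 0.35, adjusted p = 0.422).

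Of the 14 type 2 cytokine, receptor and factor genes tested, 0 passed, 6 were positive and 8 negative, with a median of -0.07. Il4ra, the receptor chain shared by interleukin-4 and interleukin-13, was the only one whose arms did not overlap (protected above in 2.34% of all genes). It stood between 13.3 and 16.9 on the protected and between 5.65 and 10.3 on the diabetogenic arrays, but at 12.1 in untreated islets (0.69 ± 0.39, adjusted p = 0.608). The decoy receptor gene Il13ra2 did not pass either (0.63 ± 0.35, limma, adjusted p = 0.608).

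**Figure D3:**
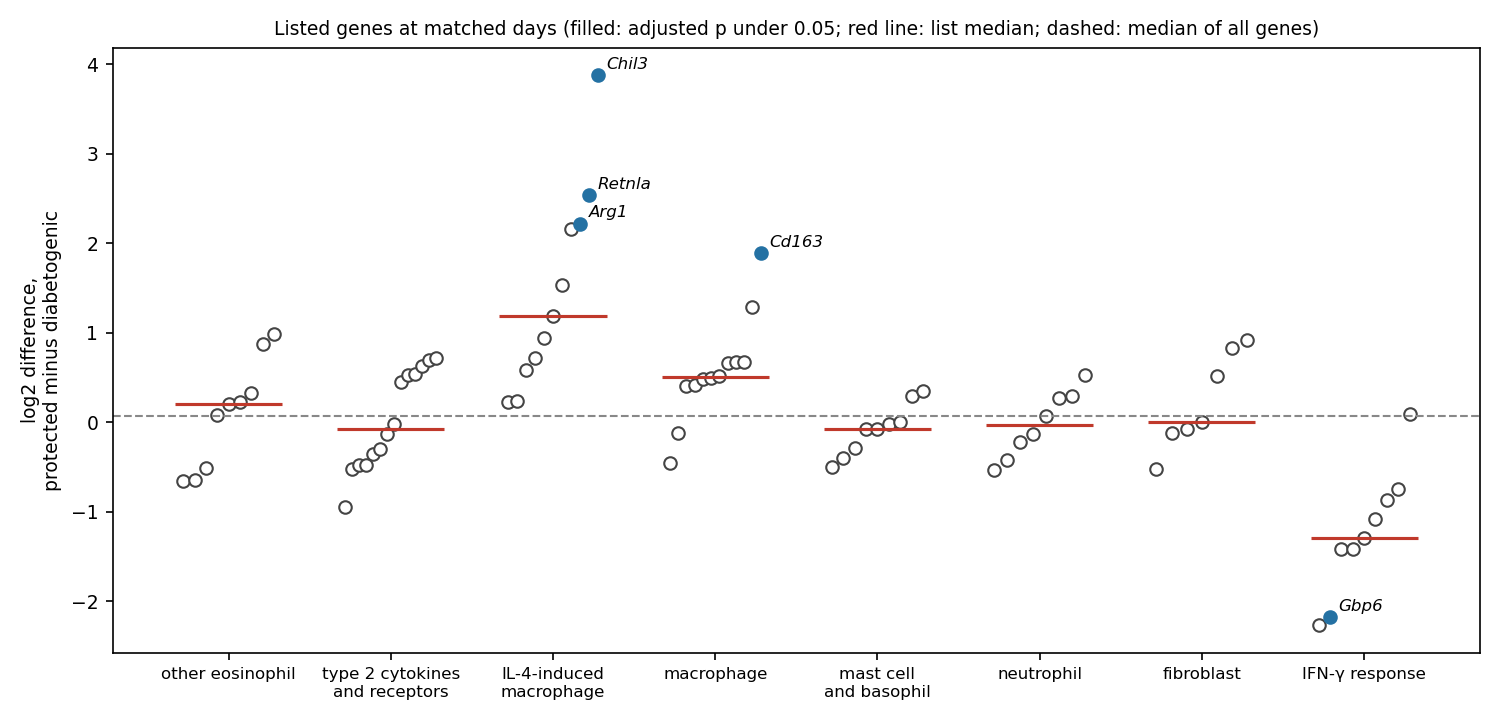
Log2 difference, protected minus diabetogenic, of each tested gene of 8 lists in the matched-day fit; filled points passed at an adjusted p under 0.05 (limma, over all genes), red lines are list medians and the dashed line is the median of all 16396 genes, 0.07. The list of further eosinophil genes has a median of 0.21 and 0 passing genes, and the interleukin-4-induced macrophage list a median of 1.19 and 3.

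Some macrophage genes were higher in the protected arm as well. Of 11 genes that interleukin-4 induces in macrophages, all were positive, 3 passed (Chil3, Retnla and Arg1; 0.0915% of all genes passed as higher in protected islets) and the median difference was 1.19. Earlier results of these data had shown these 3 genes when the list was drawn up, so their count and p-values are no independent evidence. Chil3, a secreted chitinase-like protein, differed by 3.88 ± 0.54 (limma, adjusted p = 0.000269), Retnla, a resistin-like protein, by 2.54 ± 0.40 (adjusted p = 0.00118) and the arginase gene Arg1 by 2.22 ± 0.41 (adjusted p = 0.0104). The count of 3 went to 0 when the day block was dropped, when arrays were quantile-normalized and when all probe sets of a gene were averaged.

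Of 12 general macrophage markers 10 were positive and 1, the haemoglobin scavenger receptor gene Cd163, passed (1.89 ± 0.36, limma, adjusted p = 0.0172), a call lost without the day 4 pair, the filter or the day block, with the larger pseudocount, and under quantile normalization or averaged probe sets. Their median difference was 0.51, and they summed to 180 to 1352 on the diabetogenic and 255 to 1571 on the protected arrays, ranges that overlap widely. The macrophage genes' part in the Ccl24 and Rnase2a values was not tested. On the diabetogenic array of day 8 most of the sum was Csf1r, the receptor gene of a macrophage growth factor, at 1067 of 1352. Csf1r has 3 probe sets, and the sums take only the 1 with the highest mean log2 value. Of the other markers on the diabetogenic array of day 8, Lyz2 stood at 146, C1qb at 53.8, C1qc at 32.6 and C1qa at 12.4. Adgre1, Cd68 and Cd14 stood at 6.85, 7.76 and 4.87, and Fcgr1, Itgam, Msr1 and Cd163 between 1 and 9.21.

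Markers of mast cells, basophils and neutrophils showed no separation of the arms. The 11 measured mast cell and basophil genes summed to between 35.0 and 59.9 over the 8 arrays and the 10 neutrophil genes to between 38.9 and 79.6, and 0 of the 9 and 8 tested passed. Acinar markers were positive for 7 of 7 genes with a median of 1.80 (by matched day -0.09, 3.54 and 1.67), and 0 passed; their part in the Ccl24 and Rnase2a values was not tested. Genes induced by IFN-γ went the other way, 8 of 9 differences being negative with a median of -1.29. By matched day 3, 4 and 8 their median was -2.80, -0.84 and -0.24, so the difference was largest on day 3 and small by day 8. Of these genes 1, the GTPase gene Gbp6, passed as lower (limma, adjusted p = 0.0383), where 0.0183% of all genes did.

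The genes whose pattern over the 8 arrays was most like that of Ccl24, by Pearson's r of log2 values among 2353 genes that were bright on some array, were Cd163 (r = 0.98), the fibronectin gene Fn1 (0.96), Rab44 (0.95), the endocytic adaptor gene Dab2 (0.95) and Arg1 (0.94). Rnase2a was the sixth, at 0.94, and Ccl11 ranked 33, at 0.79. Most like Rnase2a were the metalloproteinase inhibitor gene Timp1 (0.98), Chil3 (0.96), the chemokine gene Ccl8 (0.94), Ccl24 (0.94) and Retnla (0.94). Apart from Ccl24 and Rnase2a themselves, none of these genes is on the lists of eosinophil genes. Bright here meant at least 8 times the array median on the gene's brightest array. Epx, Prg2, Ccr3 and Il5ra reached at most 1.97 times it and could not enter, nor could further eosinophil genes as dim as Siglecf. Their absence from this ranking therefore says nothing. The 8 arrays fall into arms, which alone can give high correlations, so these values describe likeness and carry no test.

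**Figure D4:**
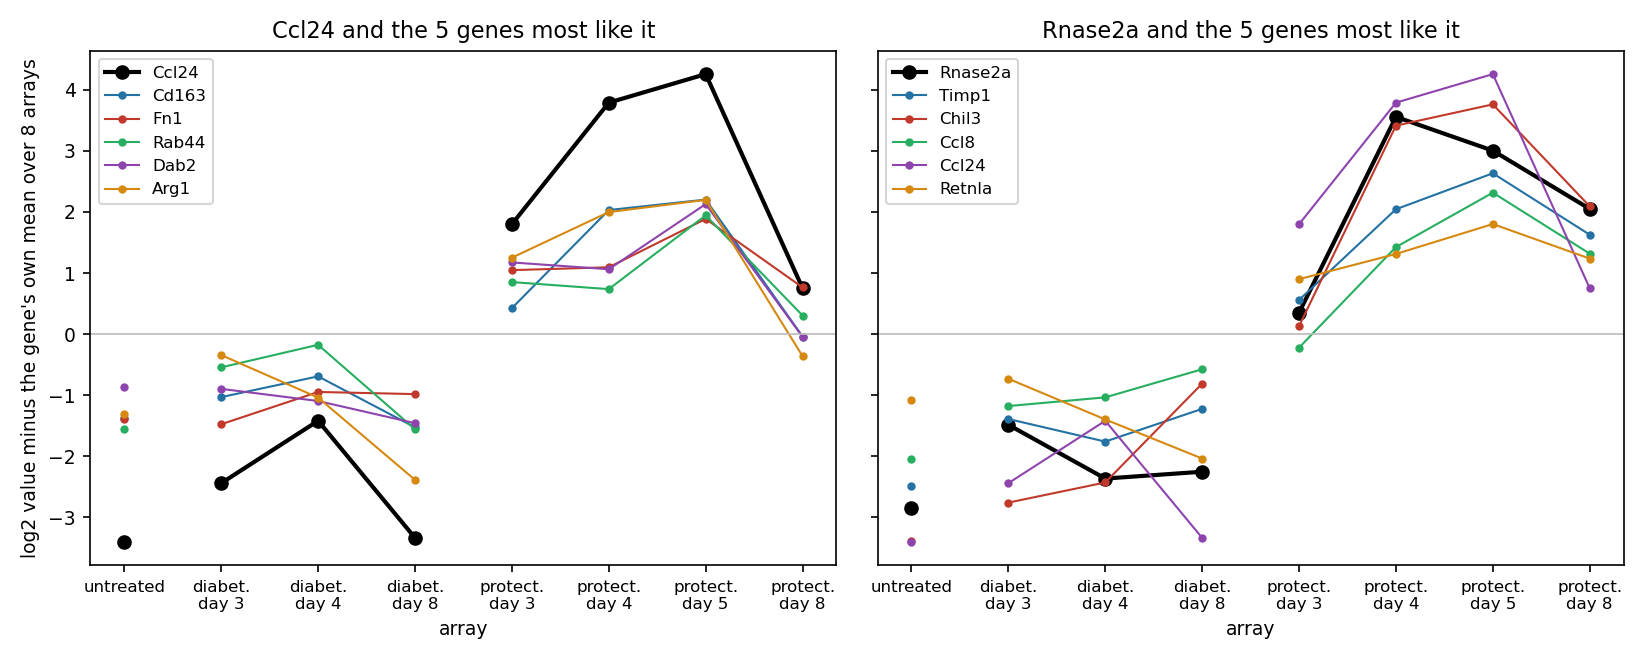
Log2 value minus the gene's own mean over the 8 arrays, for Ccl24 (left) and Rnase2a (right) in black and for the 5 genes with the highest Pearson's r in colour, by array; lines join the days of an arm. Cd163 follows Ccl24 with a high on day 5 and a low on day 8 of the protected arm (r = 0.98), and Timp1 follows Rnase2a (r = 0.98).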

How the data were processed

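The authors deposited 1 table of probe set intensity values on a linear scale for the 8 arrays. Their summarisation and scaling are not given in the sources used here. Per the labels' protocols, RNA of laser-captured islets was pooled, amplified and labelled with biotin. Differences were taken on log2(intensity + 2.155), where 2.155 is the median of the 8 arrays' lower quartiles. Gene names came from the platform annotation, in which 34945 probe sets have 1 symbol, 932 several and 9211 none; 64 control probe sets were left out. Probe sets that reached the array median on 2 or more of 8 arrays were kept, and a gene was represented by its probe set with the highest mean log2 value, which left 16396 genes. Each member has a single probe set.

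Differences and SEs came from limma 3.58.1 in R 4.3.3 (lmFit, eBayes with a variance trend), with Benjamini-Hochberg adjustment over all genes and 0.05 as the threshold. The arms were compared over days 3, 4 and 8 with day as a block. A second fit, of all 8 arrays, set each arm against untreated islets; it has no spread of its own for the single untreated array and borrows that within the arms. No source says that the days are independent repeats, so p-values measure the spread between these pools. The scripts were tested on simulated data. The number of arrays limits the precision.

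The members and lists were chosen with earlier results of these data known. Genes named are the members, from each list those that passed or otherwise up to 4 with the largest absolute difference, and the 5 genes most like Ccl24 and Rnase2a. Siglecf, Rnase2b, Il5 and Ear3 were added to these after their values were seen. The beta cell genes and the macrophage markers other than Cd163 are also named outside that rule. Alternatives were the pseudocount, the filter, the choice of probe set, the normalization, the day block and leaving out arrays.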

Additional observations from a re-analysis of the deposited data

How the results depend on the processing

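Genes passing the matched-day fit numbered 18, and 1 with quantile normalization, 1 with the mean of probe sets, 0 without the block for day, 10 without the filter and 8 with the pseudocount at 8.62. Leaving out the day 3, 4 or 8 pair gave 69, 33 and 40, of which only 13, 9 and 14 were among the 18. The Ccl24 difference fell from 4.51 to 3.55 with the pseudocount at 8.62, which compresses low values. The matched-day differences of Ccl24, Rnase2a, Ccl11, Epx, Prg2 and Il5ra kept their sign in all alternatives run, and Ccl11, Epx, Prg2 and Il5ra did not pass in any. In the protected arm against untreated islets 0 genes passed, and 1 did with every probe set fitted on its own, without the protected array of day 3 or with quantile normalization. Differences from untreated islets that changed sign were Il5ra in the diabetogenic arm (0.11 without its day 8 array, range over left-out arrays -0.38 to 0.11) and Epx in the protected arm (-0.046 without its day 5 array, range -0.046 to 0.25). The 3 members whose arms did not overlap (2.34% of all genes) numbered 3 with quantile normalization (2.64%) and, in checks added after seeing the data, 4 without the day 4 arrays (9.14%) and 3 over days 4, 5 and 8 alone (18.3%). The causes were not tested. Dim members limit every statement on eosinophil genes, since their values lie near the array medians.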
